A study of Mus musculus with 62 samples.

Results

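The 10 genes described here carry iron into cells, store it, let it out again and sense it. They were taken by name from the table of 47643 genes: Tfrc and Slc11a2 for uptake, Fth1 and Ftl1 for storage, Slc40a1 and Cp for export, Trf and Hpx as plasma carriers, and Aco1 and Ireb2 as the iron regulatory proteins. The RNA came from the diaphragms of 62 female mice whose age the labels give as 2 months, collected 2, 4, 6 and 8 weeks after injection. Cachectic mice carried melanoma cells of the patient-derived xenograft MAST360B/SJMEL030083_X2 and non-cachectic mice those of MAST552A/SJMEL031086_X1, both placed in the flank, while control mice had a mock injection. There were 5 mice in each of the 12 conditions, apart from 7 cachectic mice at 8 weeks. Each tumor group thus stands for 1 patient-derived line. The sample labels give the strain as C57BL6/J, whereas the series design and the study's methods name NCI Ath/nude mice, a host that lacks mature T cells.

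Iron circulates bound to transferrin, the Trf product, and enters most cells when transferrin binds its receptor, the Tfrc product, and is taken into endosomes, from which the transporter encoded by Slc11a2 moves the metal into the cytosol. Iron that is not used is held in ferritin, a shell of heavy (Fth1) and light (Ftl1) subunits, or leaves through ferroportin (Slc40a1) with the help of the ferroxidase ceruloplasmin (Cp). When iron is scarce, the iron regulatory proteins bind a stem-loop called the iron-responsive element, which blocks translation of ferritin and ferroportin mRNAs and protects Tfrc mRNA from decay. Translation of ferritin can therefore change with no change in its mRNA, and these data report mRNA levels only.

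The iron-responsive elements are shown because the 2 iron regulatory proteins bind such elements, and a search by pattern found them in 4 of the 10 genes. The sense strand of protein-coding transcripts was searched for a C, 5 bases, the letters CAGTG with A, C or T after them, and 5 more bases, where all 5 bases on either side of the loop could pair (G with T allowed). It found 7 sites in Fth1, Ftl1, Slc40a1 and Tfrc, all in UTRs, and a match anywhere in the transcript in 222 of 21901 genes (1.01%). A match is a description of letters and not a test that a site is used. Elements with another loop or an imperfect helix would be missed, so a gene with no match is not shown to lack one. The 29 bases of each are given on the sense strand with mm10 coordinates, from the GENCODE M21 transcripts, with the loop of 6 bases in capitals.
Fth1, 5′ UTR, chr19:9982732-9982760, plus strand: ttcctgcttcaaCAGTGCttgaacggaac
Ftl1, 5′ UTR, chr7:45459779-45459807, minus strand: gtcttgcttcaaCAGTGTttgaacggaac
Slc40a1, 5′ UTR, chr1:45925465-45925493, minus strand: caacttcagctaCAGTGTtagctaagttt
Tfrc, 3′ UTR, chr16:32631219-32631247, plus strand: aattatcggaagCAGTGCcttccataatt
Tfrc, 3′ UTR, chr16:32631598-32631626, plus strand: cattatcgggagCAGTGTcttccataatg
Tfrc, 3′ UTR, chr16:32631663-32631691, plus strand: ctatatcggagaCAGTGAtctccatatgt
Tfrc, 3′ UTR, chr16:32631710-32631738, plus strand: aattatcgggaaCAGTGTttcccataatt
The sites found in Fth1, Ftl1 and Slc40a1 lie ahead of the coding sequence, and the 4 found in Tfrc lie behind it.

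Values are TPM, a share of all transcripts in a library that is scaled for gene length, so levels can be set side by side between genes. Skeletal muscle markers summed to between 45140 and 100786 TPM in every library. In 4 libraries, from 2 cachectic mice and 1 non-cachectic mouse at 2 weeks and from cachectic mouse 3 at 8 weeks, 15069 to 16389 genes were above 0, against 17909 to 19057 in the other 58, and 54.4 to 61.5% of TPM came from mitochondrially encoded genes, against 32.5 to 50.1%. Alb, which encodes the albumin made by the liver, reached 2720 to 13369 TPM in 3 control mice at 2 weeks and 1 cachectic mouse at 6 weeks, the 4 libraries with the highest sum of liver markers. Results that rest on these libraries are given with and without them. Differences between groups are on the log2(TPM + 1) scale, with the standard error, and a gene is called changed at a Benjamini-Hochberg adjusted p under 0.05 over the 13578 genes tested with limma. In bulk tissue, fewer cells of a type and less RNA per cell cannot be told apart.

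All 10 genes passed the filter of 1 TPM in at least 5 mice. Over all mice, the median level was highest for Fth1 at 2736 TPM, followed by Ftl1 at 592 TPM and Trf at 49.0 TPM. Tfrc stood at a median of 20.5 TPM, Aco1 at 14.8, Ireb2 at 14.5 and Cp at 11.0. Slc11a2 at 6.52 TPM, Slc40a1 at 2.05 and Hpx at 1.65 were the lowest. The ranges over the 62 mice overlapped for every pair of neighbours in this order. Within each mouse, however, Fth1 exceeded Ftl1, by 1.69 to 8.32 times.

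**Figure D1:**
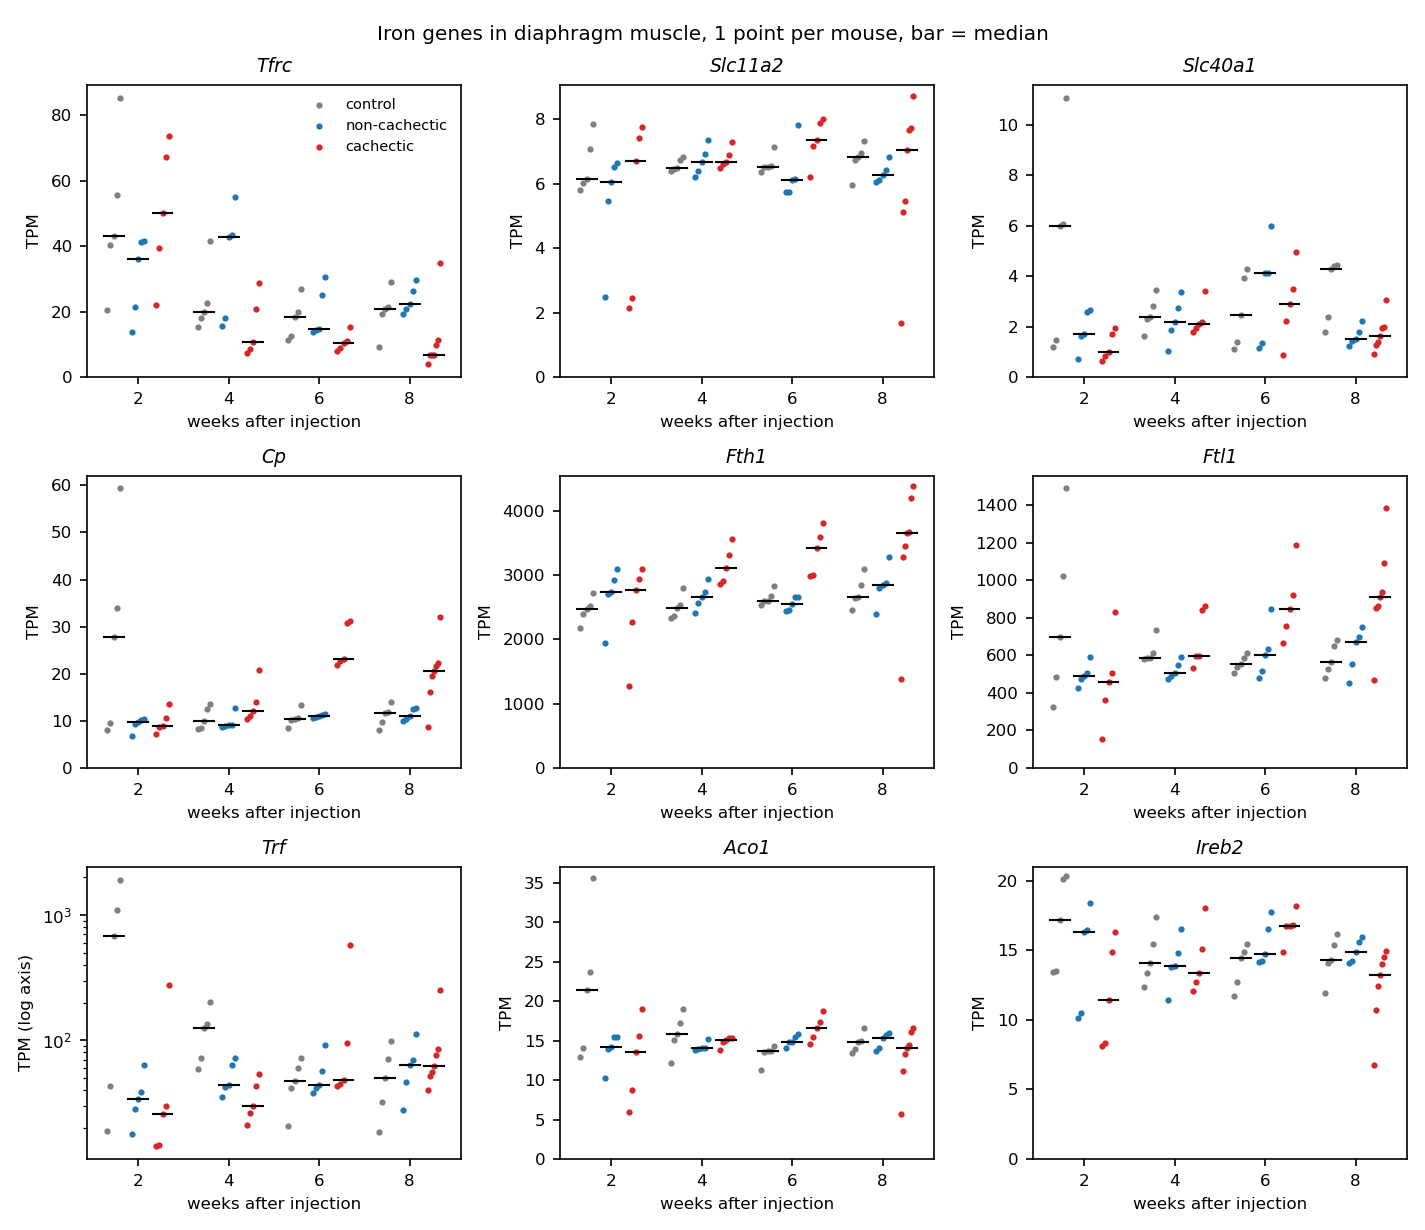
TPM of 9 iron genes against weeks after injection, with 1 point per mouse, a bar at the median, and colors for control, non-cachectic and cachectic mice; the axis of Trf is logarithmic and the others start at 0. The 5 cachectic mice at 6 weeks lie above all control mice for Cp, Fth1, Ftl1 and Aco1, and Tfrc is low in all cachectic mice at 8 weeks except 1 at 34.7 TPM.

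Ceruloplasmin mRNA was higher in cachectic mice at the later times. Cp oxidizes ferrous iron as it leaves cells, so that transferrin can load it. At 6 weeks, Cp was at 30.7, 23.2, 22.8, 21.9 and 31.3 TPM in the cachectic mice. It was at 10.4, 10.6, 13.3, 10.3 and 8.5 TPM in the control mice and at 10.8, 11.0, 11.4, 10.6 and 11.2 TPM in the non-cachectic mice. The lowest cachectic mouse thus stood above the highest mouse of both other groups, a gap that 15.9% of all genes had on the higher side against control and 13.6% against non-cachectic mice. Cp rose by 1.21 ± 0.27 over control (SE, adjusted p = 0.00296) and by 1.15 ± 0.27 over non-cachectic mice (adjusted p = 0.00527). It was the only member called in either comparison at 6 weeks, where 6.79% and 5.85% of all genes were called.

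At 8 weeks, Cp ranged from 8.76 to 32.1 TPM in the 7 cachectic mice, with a median of 20.6. The control mice were at 8.09, 11.6, 9.71, 13.96 and 11.98 TPM, and the non-cachectic mice at 12.6, 11.0, 12.7, 9.98 and 10.4 TPM. The groups overlapped through cachectic mouse 3, the library with few genes, and the other 6 were all above every control and non-cachectic mouse. The difference from control was 0.75 ± 0.25 (adjusted p = 0.0348), and Cp was again the only member called, beside 14.8% of all genes. Against non-cachectic mice it was 0.71 ± 0.25 (adjusted p = 0.0539). Without mouse 3 these were 0.92 (adjusted p = 0.00451) and 0.88 (adjusted p = 0.00749). The call against control at 8 weeks was lost on leaving out any of 6 other mice, cachectic 1, 2 or 6 or control 1, 2 or 3, with differences of 0.63 to 0.77 and a highest adjusted p of 0.107, so its side of the threshold rests on single animals. At 4 weeks Cp was at 12.2, 20.8, 10.4, 11.0 and 14.1 TPM in cachectic mice, a range that overlapped that of the control mice, 8.21 to 13.5 TPM.

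The rise of Cp at 6 and 8 weeks was present where the liver transcript was almost absent. With Alb under 1 TPM, the 3 cachectic mice at 6 weeks had 21.9 to 30.7 TPM of Cp and the 2 control mice 10.4 and 10.6 TPM. At 8 weeks, the 3 such cachectic mice had 16.1 to 21.7 TPM, the 2 control mice 8.09 and 13.96 TPM, and the 3 non-cachectic mice 10.4 to 12.6 TPM. With Alb as a covariate, the difference from control at 8 weeks was 0.78 (adjusted p = 0.012). Of the macrophage markers, 3 of 8 rose at 6 weeks and 5 of 8 at 8 weeks against control, where 5.62% and 6.65% of all genes rose, and their sum was 160 to 292 TPM in cachectic mice at 6 weeks against 105 to 168 in control mice, and 148 to 434 against 119 to 183 at 8 weeks. Outside those groups, a sum of 295 TPM stood beside 10.6 TPM of Cp in non-cachectic mouse 4 at 6 weeks. The values were 302 and 8.6 TPM in control mouse 5 at 4 weeks. In non-cachectic mouse 5 at 2 weeks, a library with few genes, they were 385 and 10.3 TPM. In cachectic mouse 2 at 4 weeks they were 179 and 20.8 TPM. These mice are examples and not a comparison. No macrophage marker was at 0 throughout a group, and their part in the level of Cp was not tested. Over the 12 condition means, Pdia5 and Sec23b were among the genes whose pattern was most like that of Cp, out of 13578, each with a Pearson correlation of 0.97. The means include that of control mice at 2 weeks, some of which had high Alb and high Cp. Whether the correlations hold without that condition was not tested.

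**Figure D2:**
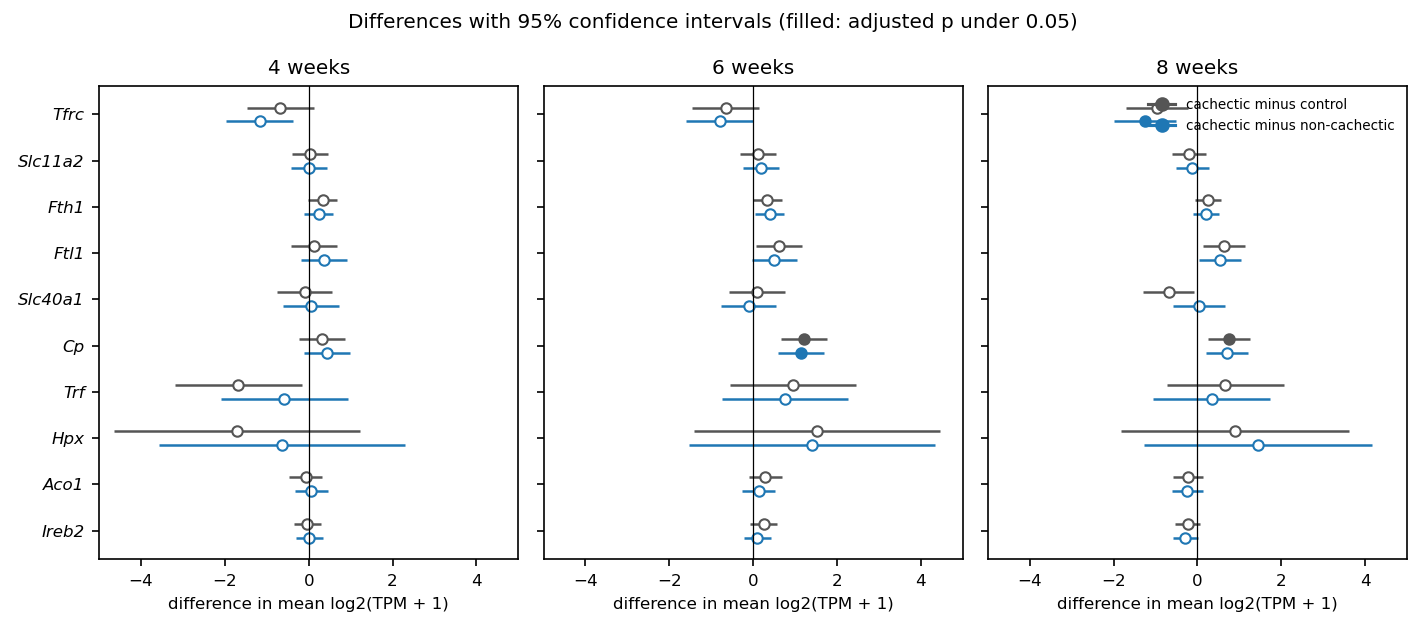
Difference of cachectic from control mice (grey) and from non-cachectic mice (blue) in mean log2(TPM + 1) for the 10 genes at 4, 6 and 8 weeks, with 95% confidence intervals; filled points have an adjusted p under 0.05. Cp is filled at 6 weeks against both groups and at 8 weeks against control, Tfrc is filled at 8 weeks against non-cachectic mice, and the intervals of Hpx and Trf are the widest.

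Ferroportin, the only known cellular iron exporter, was low throughout and passed the test against neither group at 8 weeks. Slc40a1 was at 4.30, 2.40, 4.44, 4.39 and 1.80 TPM in control mice at 8 weeks and ranged from 0.927 to 3.06 TPM, with a median of 1.62, in cachectic mice. The non-cachectic mice, at 1.24, 1.79, 2.24, 1.495 and 1.41 TPM, lay within the cachectic range. Both tumor groups were on the lower side of control, with differences of -0.68 ± 0.30 for cachectic (adjusted p = 0.131) and -0.72 ± 0.33 for non-cachectic mice (adjusted p = 1), and these comparisons share the control mice. Between the tumor groups the difference was 0.04, with a 95% interval of -0.58 to 0.65. At 6 weeks the cachectic mice spread from 0.881 to 4.96 TPM and the control mice from 1.0995 to 4.28 TPM, and the difference of 0.10 turned to -0.03 on median-ratio scaling. At such low levels a difference on the log2(TPM + 1) scale understates the fold.

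Transferrin receptor mRNA was lower in cachectic than in non-cachectic mice at 8 weeks. Tfrc ranged from 4.07 to 34.7 TPM in the 7 cachectic mice with a median of 6.87, and the non-cachectic mice were at 20.9, 19.3, 22.4, 26.2 and 29.8 TPM. Apart from 1 mouse, the cachectic mice, at 11.4 TPM or less, were under every non-cachectic mouse, and the exception at 34.7 TPM was mouse 3. Tfrc fell by 1.26 on the log2 scale (SE 0.37, adjusted p = 0.0144), the only member called in this comparison, where 12.9% of all genes were. Without mouse 3 it fell by 1.57 (adjusted p = 6.86e-04), and Cp, Fth1 and Ftl1 were then called higher as well, beside 17.8% of all genes. The call was lost on median-ratio scaling (-1.12, adjusted p = 0.0741) and in a fit of the compared groups alone (adjusted p = 0.11).

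The control mice at 8 weeks had 28.9, 20.7, 19.3, 21.5 and 9.10 TPM of Tfrc, the lowest of which lay among the cachectic mice. The difference of cachectic from control mice was -0.96 ± 0.37 (adjusted p = 0.0729), and it passed the threshold without cachectic mouse 3 (-1.26, adjusted p = 0.00631) and without control mouse 5 (-1.20, adjusted p = 0.0317). Cachectic mouse 3 also carried the highest sum of erythroid markers, 41181 TPM against 536 to 7916 in the other 6 cachectic mice and 2543 to 10523 TPM in control mice at this time. Immature red cells hold abundant transferrin receptor, and the part of blood in this value was not tested. Over all groups, the next highest erythroid sums, 14273 to 18527 TPM, stood beside 7.22 to 29.8 TPM of Tfrc. The other few-gene libraries, cachectic mice 3 and 4 and non-cachectic mouse 5 at 2 weeks, had 50.1, 67.0 and 21.5 TPM of Tfrc. Their erythroid sums were 10620, 2726 and 7373 TPM. At 6 weeks Tfrc was at 7.83, 8.82, 15.3, 10.4 and 10.9 TPM in cachectic and 26.9, 12.7, 18.2, 19.8 and 11.2 TPM in control mice, overlapping groups with a difference of -0.66 ± 0.40 (adjusted p = 0.367). At 4 weeks the difference from control was -0.68 ± 0.40 (adjusted p = 1) and from non-cachectic mice -1.16 ± 0.40 (adjusted p = 0.523).

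The median of Tfrc was at its highest at 2 weeks in both control and cachectic mice. The medians in control mice were 43.0, 19.7, 18.2 and 20.7 TPM at 2, 4, 6 and 8 weeks, and those in cachectic mice 50.1, 10.8, 10.4 and 6.87 TPM. From 2 to 8 weeks Tfrc fell by 2.22 (SE 0.37) in cachectic mice (adjusted p = 2.58e-05), where 3.15% of genes fell and 26.5% rose. Over the same weeks the difference in control mice was -1.20 ± 0.40 (adjusted p = 0.11), where 3.26% of genes fell, and without the 4 libraries with few genes it was called (adjusted p = 0.0489), with a value of -2.31 in cachectic mice (adjusted p = 3.07e-05). The difference between these falls was not tested. The medians of the non-cachectic mice were 35.9, 42.8, 14.8 and 22.4 TPM, with -0.27 ± 0.40 from 2 to 8 weeks (adjusted p = 0.716).

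Slc11a2, which carries iron across the endosomal membrane, varied little between groups. Its group medians lay between 6.05 and 7.35 TPM in the 12 conditions. All differences between groups at 4, 6 and 8 weeks lay between -0.20 and 0.19, with adjusted p of 0.558 or higher, and at 6 weeks the sign against control turned on median-ratio scaling, from 0.13 to -0.04. The only values under 3 TPM were in the 4 libraries with few genes.

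The ferritin subunits had the highest levels, and their means lay above control in cachectic mice from 4 weeks on. At 6 weeks Fth1 was at 3806, 2982, 3588, 3426 and 3001 TPM in cachectic mice and at 2594, 2600, 2825, 2672 and 2535 TPM in control mice. Ftl1 was at 1186, 923, 758, 666 and 848 TPM in cachectic mice and at 504, 555, 613, 539 and 588 TPM in control mice. For both subunits the lowest cachectic mouse lay above the highest control mouse. Such a gap on the higher side was found at 6 weeks for 4 of the 10 members, Cp, Fth1, Ftl1 and Aco1, and for 15.9% of all genes. The differences were 0.34 ± 0.17 for Fth1 (adjusted p = 0.254) and 0.62 ± 0.27 for Ftl1 (adjusted p = 0.17), so neither subunit was called at 6 weeks. In the 12 alternatives that did not leave out a single mouse, they were 0.15 to 0.38 for Fth1 and 0.43 to 0.63 for Ftl1. At 6 weeks, mitochondrially encoded genes made up 34.3 to 44.896% of TPM in cachectic and 44.92 to 47.9% in control mice. The part of this share in the gaps was not tested.

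At 8 weeks Fth1 ranged from 1386 to 4389 TPM in cachectic mice with a median of 3651, and the control mice had 2458 to 3094 TPM. Ftl1 ranged from 467 to 1381 TPM with a median of 912, against 479 to 680 TPM in control mice. The lowest cachectic value of each was again that of mouse 3, and the other 6 mice were above every control mouse. With all 7 mice, no member was free of overlap with control at 8 weeks, as 2.52% of genes were on the higher and 3.82% on the lower side. With all mice the differences were 0.25 ± 0.16 for Fth1 (adjusted p = 0.319) and 0.63 ± 0.25 for Ftl1 (adjusted p = 0.0844). Without mouse 3 they were 0.46 (adjusted p = 0.00418) and 0.78 (adjusted p = 0.0183), and 4 of the 10 members were then called, beside 18.7% of all genes. On median-ratio scaling, which keeps mouse 3, Cp, Fth1 and Ftl1 were called higher, beside 11.9% of all genes. Read from the 8-week cachectic mice against the 2-week ones, Ftl1 rose by 1.14 ± 0.25 (adjusted p = 8.86e-04), Cp by 0.92 ± 0.25 (adjusted p = 0.00652) and Fth1 by 0.46 ± 0.16 (adjusted p = 0.0241), and these 3 calls held without the 4 libraries with few genes (differences of 0.45 to 0.92). A count of 3 in 10 is close to the 26.5% of all genes that rose, or 26.2% without those libraries.

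At 6 and 8 weeks the fitted difference from control was larger for the light subunit, and at 4 weeks for the heavy one (0.33 against 0.12). The ratio of Fth1 to Ftl1 TPM at 8 weeks was 3.69 ± 0.56 in cachectic mice (SD, n = 7) and 4.78 ± 0.71 in control mice (n = 5), a difference of -1.09 (exact two-sided permutation test, p = 0.0202). This ratio was examined after the levels were seen, and over its 8 comparisons the adjusted p was 0.162, so it did not pass. On leaving out each mouse in turn the difference at 8 weeks stayed between -1.31 and -0.90. At 6 weeks the ratio was 3.97 ± 0.90 and 4.74 ± 0.32 (exact permutation test, p = 0.135, n = 5 in each). At 4 weeks the cachectic ratio was the higher one, by 0.65 (exact permutation test, p = 0.103), as at 2 weeks, by 2.12 (exact permutation test, p = 0.0952). Processed ferritin pseudogenes share sequence with both genes, and how reads matching several genes were assigned is not stated, so ferritin levels and this ratio are uncertain to that extent.

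Transferrin and hemopexin, plasma proteins made mainly by the liver, followed Alb in the mice where Alb was high. Hemopexin binds free heme. In the 12 mice with Alb at 100 TPM or more, Hpx was at 11.2 to 814 TPM and Trf at 26.0 to 1913 TPM. In the other 50 mice Hpx was at 0 to 9.13 TPM and Trf at 14.3 to 134 TPM. Where Alb was under 1 TPM, Hpx was at 0.504 TPM or less in all 18 mice, whereas Trf kept 14.3 to 112 TPM, with a median of 42.5. Trf mRNA was thus measured in muscles with almost no Alb, and Hpx mRNA nearly was not.

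**Figure D3:**
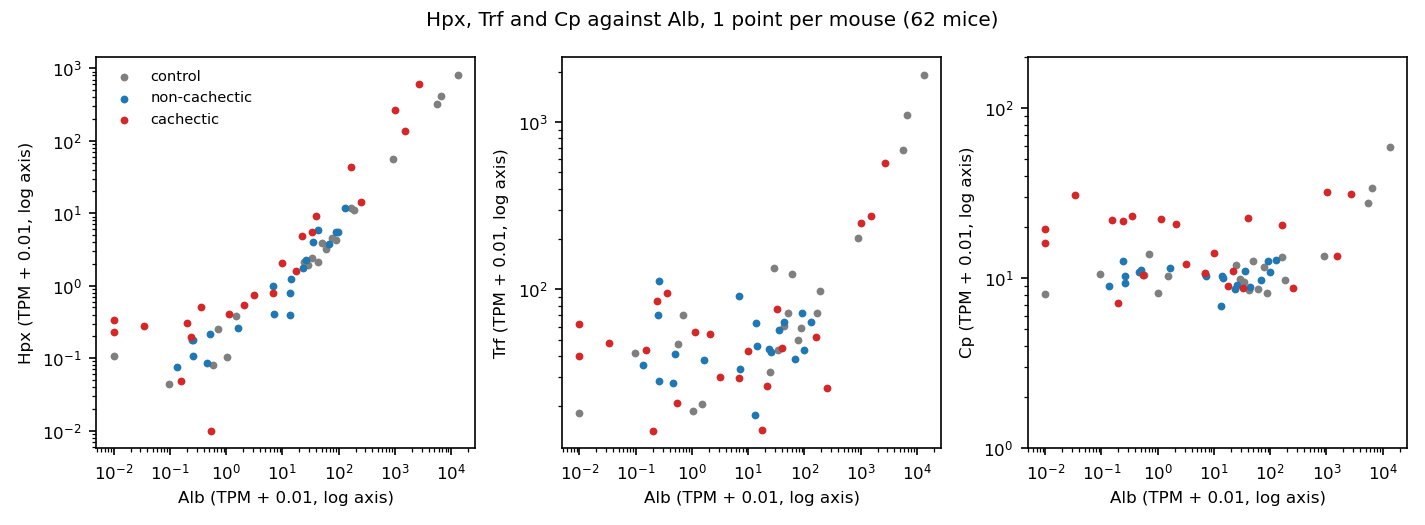
TPM of Hpx, Trf and Cp (each plus 0.01, logarithmic axes) against TPM of Alb in 62 mice, colored by group. Hpx rises with Alb above 1 TPM of Alb and is at 0.504 TPM or less in the 18 mice under it. Trf rises only in the mice with the highest Alb. Cp is at 16.1 to 30.7 TPM in the cachectic mice at 6 and 8 weeks that have under 1 TPM of Alb.

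At 8 weeks Trf ranged from 40.0 to 250 TPM in cachectic mice with a median of 61.8, and the control mice were at 18.4, 49.996, 98.3, 70.4 and 32.2 TPM. The difference was 0.66 ± 0.70 (adjusted p = 0.589). At 6 weeks cachectic mouse 5 had 572 TPM of Trf and 617 TPM of Hpx with 2720 TPM of Alb, and the other 4 had 43.4 to 95.4 TPM of Trf and 0.0382 to 9.13 TPM of Hpx. Without this mouse the Hpx difference from control turned from 1.53 to -0.11, and that of Trf went from 0.96 to 0.28. At 4 weeks all cachectic mice, at 21.0 to 53.9 TPM of Trf, lay under all control mice, at 58.9 to 204 TPM, a gap on the lower side that 1.93% of genes had. Fth1 was the 1 member with such a gap on the higher side at 4 weeks, beside 4.91% of genes. The Trf difference of -1.68 ± 0.75 was not called (adjusted p = 0.825). Alb was also lower in every cachectic mouse, at 0.534 to 22.0 TPM against 29.0 to 911 TPM. Within the control mice, however, Trf did not follow the order of Alb. Mice 1 to 5 had 911, 29.0, 50.1, 88.2 and 59.6 TPM of Alb and 204, 134, 72.1, 58.9 and 124 TPM of Trf. The part of liver RNA in the Trf gap was not tested.

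The iron regulatory proteins bind the elements shown above. Aco1 doubles as the cytosolic aconitase when it holds an iron-sulfur cluster, and Ireb2 is degraded when iron is ample, so for both the mRNA does not give the activity. Aco1 was at 14.5 to 18.8 TPM in cachectic mice at 6 weeks and 11.3 to 14.3 TPM in control mice, with no overlap and a difference of 0.29 ± 0.20 (adjusted p = 0.423). Ireb2 was at 14.9 to 18.2 TPM and 11.7 to 15.5 TPM, with a difference of 0.26 ± 0.16 (adjusted p = 0.381). At 8 weeks the differences had the other sign, -0.22 ± 0.18 for Aco1 and -0.23 ± 0.15 for Ireb2, and the lowest values, 5.73 and 6.77 TPM, were those of mouse 3. The median difference of all genes tested was 0.17 at 6 weeks and -0.09 at 8 weeks, and median-ratio scaling brought these to 0.01 at both times, with Aco1 and Ireb2 then at 0.11 and 0.08 at 6 weeks.

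At 2 weeks the calls rested on libraries that stand apart. In cachectic against control mice, 6 of the 10 members were called lower: Trf (-2.90 ± 0.75), Slc40a1 (-1.21 ± 0.33), Cp (-1.09 ± 0.27), Ftl1 (-0.79 ± 0.27), Aco1 (-0.74 ± 0.20) and Ireb2 (-0.51 ± 0.16), beside 27.8% of all genes. The control mice with high Alb, mice 2, 4 and 5, had 59.4, 34.0 and 27.7 TPM of Cp and 11.1, 5.99 and 6.09 TPM of Slc40a1, against 8.15 and 9.46 TPM of Cp and 1.19 and 1.45 TPM of Slc40a1 in the other pair. Without the 4 libraries with the highest liver markers 0 members were called, and without the 4 with few genes also 0. Leaving out cachectic mouse 3 or control mouse 2 alone gave 0, and cachectic mouse 4 alone gave 2. Non-cachectic mice at 2 weeks were compared with the same control mice: Trf (-2.93), Cp (-1.14) and Hpx (-4.88) were called lower, beside 4.42% of all genes, and 0 were without the liver-rich libraries or without control mouse 2 alone. Without control mouse 4 or 5 only Cp was called, and without control mouse 1 or 3 there were 5 calls. Between the tumor groups 0 members and 0% of all genes were called at 2 weeks, none of the 10 with an unadjusted p under 0.05. Dunn's test called 0 genes in every comparison at 2 weeks and is no evidence either way.

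Non-cachectic and control mice did not differ in any member at 4, 6 or 8 weeks by limma, where 0% of all genes were called. At an unadjusted p under 0.05 there was 1, Slc40a1 at 8 weeks. Cp differed between them by -0.11 ± 0.27, 0.06 ± 0.27 and 0.04 ± 0.27 at the 3 times. Dunn's test called 0 members in each of the 12 comparisons between groups, and 0 of all genes in all but the 2 comparisons with cachectic mice at 8 weeks. There it called 1121 genes against control and 607 against non-cachectic mice. Cachectic against control mice at 4 weeks gave 0 members, beside 0.0221% of all genes, and against non-cachectic mice 0, beside 0.0295%. At an unadjusted p under 0.05 there was 1 in each, Trf and Tfrc. The change of the cachectic minus control difference between 4 and 8 weeks passed for 0 members and 0% of all genes in limma, with 1, Trf, at an unadjusted p under 0.05. It was 0.43 ± 0.37 for Cp and 0.50 ± 0.37 for Ftl1, so a growth of these differences with time was not shown by this test.

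Beyond the 10 members, 55 genes from 9 lists of iron and heme metabolism were in the table and 53 were tested. Against control, 6 rose and 0 fell at 6 weeks, and 6 rose and 6 fell at 8 weeks. Of all genes, 5.62% rose and 1.17% fell at 6 weeks, and 6.65% rose and 8.12% fell at 8 weeks. The median difference of the 53 was 0.09 and -0.08, near the 0.17 and -0.09 of all genes. Slc39a14, a transporter that takes up iron not bound to transferrin, rose by 2.01 ± 0.53 at 6 weeks (adjusted p = 0.0118) and 2.11 ± 0.49 at 8 weeks (adjusted p = 0.00155). Without cachectic mouse 1 the difference at 6 weeks was 1.68 and not called (adjusted p = 0.084). At 6 weeks it was at 43.1, 12.4, 12.6, 12.8 and 15.1 TPM in cachectic and 2.80 to 3.88 TPM in control mice, without overlap. At 8 weeks 6 of 7 cachectic mice, at 14.9 to 95.5 TPM, were above all control mice, at 3.19 to 4.22 TPM, and mouse 3 was at 0.393 TPM. Against non-cachectic mice at 8 weeks, Tfrc differed by -1.26 and Slc39a14 by 2.09 (adjusted p = 0.00193). Slc11a2, which also serves uptake of transferrin-bound iron, differed by -0.12 (adjusted p = 0.759). The opposite signs are thus those of 2 single genes, and a difference between the routes of uptake was not tested.

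Of the scavengers of hemoglobin and of bacterial iron chelators, Hp, Lcn2 and Cd163 rose against control at both 6 and 8 weeks. Haptoglobin (Hp), which binds hemoglobin, rose by 3.86 ± 0.95 at 6 weeks (adjusted p = 0.00686) and 4.32 ± 0.88 at 8 weeks (adjusted p = 3.10e-04). At 8 weeks Hp was at 128 to 432 TPM in cachectic mice and 4.48 to 23.6 TPM in control mice, with no overlap. Lipocalin 2 (Lcn2), which captures siderophores, rose by 3.20 ± 0.43 (adjusted p = 1.06e-06) and 3.52 ± 0.39 (adjusted p = 6.46e-09), from 1.83 to 4.00 TPM in control to 5.19 to 83.3 TPM in cachectic mice at 8 weeks. Cd163, the macrophage receptor for hemoglobin bound to haptoglobin, rose by 1.68 ± 0.30 (adjusted p = 1.14e-04) and 1.49 ± 0.27 (adjusted p = 7.76e-05). Macrophage markers rose as given beside Cp, and of 3 neutrophil markers tested S100a8 and Retnlg rose at 8 weeks (1.33 and 1.16) while S100a9 differed by 1.26 (adjusted p = 0.128). Their part in these differences was not tested. Hp was at 730 TPM in the cachectic mouse with 2720 TPM of Alb at 6 weeks, and at 233 TPM in cachectic mouse 5 at 8 weeks, with Alb at 0.232 TPM.

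**Figure D4:**
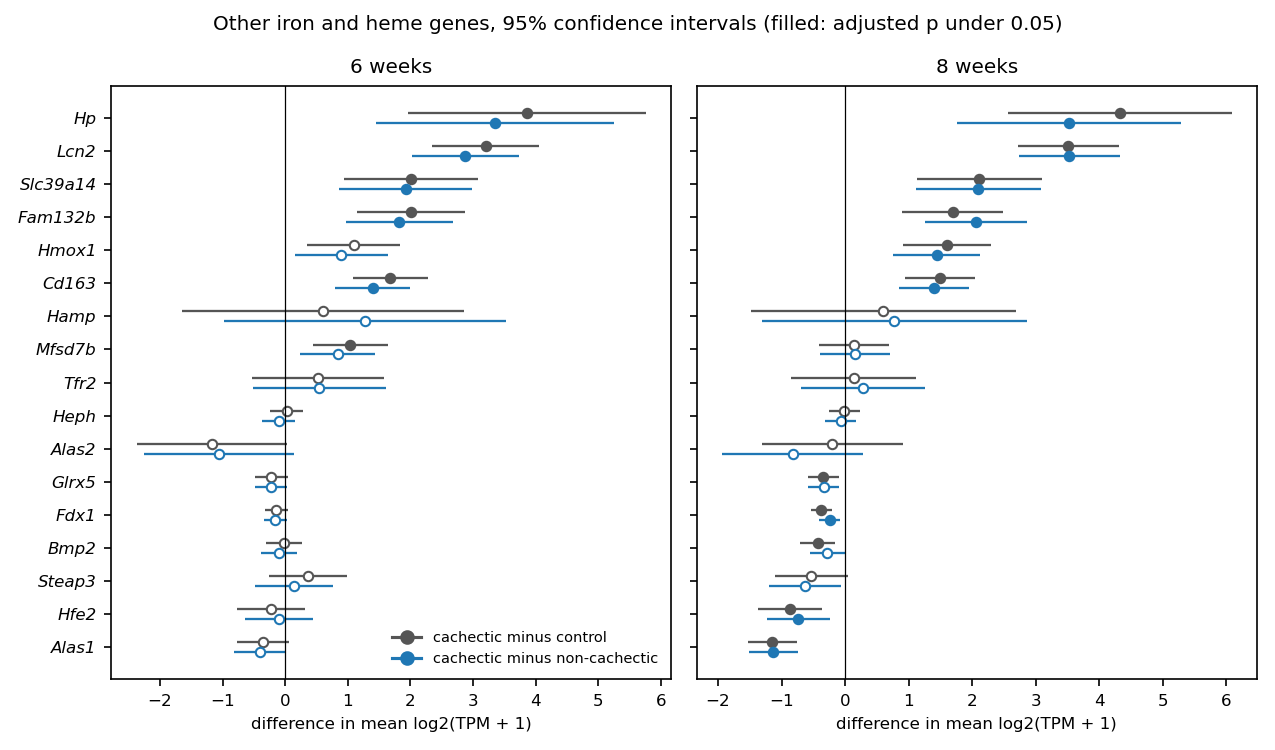
Difference of cachectic from control (grey) and non-cachectic mice (blue) in mean log2(TPM + 1) for 17 other iron and heme genes at 6 and 8 weeks, with 95% confidence intervals; filled points have an adjusted p under 0.05. Hp and Lcn2 differ by 2.87 or more in both panels, Hamp and Tfr2 have wide intervals that include 0, and Alas1 and Hfe2 are lower at 8 weeks against both groups.

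Among the genes that act on hepcidin, the liver hormone that closes ferroportin, Fam132b (also named Erfe), a hormone that lowers hepcidin, rose by 2.01 ± 0.43 at 6 weeks (adjusted p = 0.00167) and 1.69 ± 0.40 at 8 weeks (adjusted p = 0.0017). It was at 2.85 to 8.59 TPM in cachectic and 0.213 to 1.05 TPM in control mice at 6 weeks. At 8 weeks 6 cachectic mice had 4.58 to 15.5 TPM, control mice 0.634 to 1.203 TPM, and mouse 3 was listed at 0. Hfe2 (hemojuvelin), a muscle-enriched coreceptor for bone morphogenetic proteins, fell at 8 weeks by 0.87 (SE 0.25, adjusted p = 0.0121), with 55.1 to 304 TPM in cachectic and 303 to 322 TPM in control mice, and Bmp2 fell by 0.43 (SE 0.13, adjusted p = 0.0206). The Hfe2 value of 55.1 TPM was the lowest of all 62 mice. The Hfe2 call held in 12 of 12 fits without 1 mouse, with a weakest difference of -0.60 (adjusted p up to 0.0431). It held in 11 of 12 other alternatives, with differences of -1.06 to -0.29 (adjusted p up to 0.239), so the size of the fall depended on the processing. The Bmp2 call was lost without cachectic mouse 3 or control mouse 2 or 3 (differences of -0.40 to -0.35, adjusted p up to 0.0666). Hamp, which encodes hepcidin, went with Alb: it was at 4.11 to 310 TPM where Alb was 100 TPM or more and at 2.50 TPM or less elsewhere, and its difference at 8 weeks was 0.60 ± 1.04 (adjusted p = 0.767). Tfr2 at 0.13 ± 0.49 and the ferroxidase gene Heph at -0.01 ± 0.12 did not pass at 8 weeks.

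Alas1, which starts heme synthesis outside red cells, fell at 8 weeks. It was at 18.9 to 40.1 TPM in cachectic and 51.6 to 69.6 TPM in control mice, without overlap, and fell by 1.14 (SE 0.19, adjusted p = 2.18e-05). Its red-cell counterpart Alas2 differed by -0.20 ± 0.55 (adjusted p = 0.864). Of 11 genes for mitochondrial iron and iron-sulfur clusters, 3 fell and 0 rose at 8 weeks, where 8.12% of all genes fell. Fdx1 fell by 0.37 (adjusted p = 0.00104), a call lost on median-ratio scaling (-0.22) and in the compared groups alone (adjusted p = 0.198). Glrx5 fell by 0.34 (adjusted p = 0.0446), a call that held in 3 of 12 fits without 1 mouse (adjusted p up to 0.124) and in 6 of 12 other alternatives, with -0.075 under array quality weights. In heme breakdown and transport, Hmox1, the enzyme that opens heme and frees its iron, rose at 8 weeks by 1.60 ± 0.34 (adjusted p = 6.17e-04), with 7.25 to 115 TPM in cachectic and 7.35 to 10.3 TPM in control mice. The heme exporter Mfsd7b (also named Flvcr1) rose at 6 weeks by 1.04 ± 0.30 (adjusted p = 0.0219) and stood at 0.14 ± 0.27 at 8 weeks. Its call was lost without cachectic mouse 1 or 4 or control mouse 2 or 4 (differences of 0.89 to 1.04, adjusted p up to 0.086). Steap3, which reduces iron in endosomes, differed by -0.53 ± 0.29 at 8 weeks (adjusted p = 0.227). Against non-cachectic mice at 8 weeks, Slc39a14, Hp, Lcn2, Cd163, Fam132b and Hmox1 were higher and Alas1, Hfe2 and Fdx1 lower, in a comparison that shares the cachectic mice.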

How the data were processed

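Diaphragm RNA from 62 mice was sequenced by the authors, who aligned trimmed reads to the mouse genome (mm10) with CLC Genomics Workbench and deposited TPM per gene. The labels and the methods name different TruSeq kits, and neither the strand setting nor the treatment of reads matching several genes is given in the sources used here. TPM keep no read counts, and the depth of each library is unknown. Groups came from the labels.

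The deposited TPM were tested as log2(TPM + 1) with limma 3.58.1 in R 4.3.3, with a mean for each of the 12 conditions, all 62 mice, and genes of at least 1 TPM in at least 5 mice. Benjamini-Hochberg adjustment covered all 13578 genes within a contrast. Labels call the samples biological replicates, numbered within a condition. The text names the 10 members, Alb, other pathway genes with an adjusted p under 0.05 at 6 or 8 weeks against control (up to 15) or named without regard to value (Hamp, Tfr2, Heph, Hmox1, Slc39a14, Steap3, Lcn2, Hp, Alas2, Cd163), and the 3 genes most like each changed member. Some genes that this rule takes in are not reported here. The members and lists were chosen with earlier results of these data known. Alternatives covered the pseudocount (0.1), filter, scaling, weights, block, Dunn's test, the groups fitted, Alb as a covariate and left-out libraries, of which leaving out both sets of 4 libraries, and the 8 against 2 week fit without 4, were chosen after seeing the data. On data simulated for cachectic against control at 8 weeks with 13578 genes, limma called 72 of 100 genes changed by 1 on the log2 scale, 98 of 100 changed by 2 and 13 unchanged genes, and Dunn's test called 0. The simulated noise was normal, with each gene's own spread, and independent between genes and mice. It held no library that stands apart and no broad shift of all genes, so these rates do not carry over to the real data. In the real comparison Dunn's test did call genes. Exact tests used SciPy 1.17.1 in Python 3.11.15, and plots matplotlib 3.10.9.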

Additional observations from a re-analysis of the deposited data

Results flagged for a closer look

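Of 120 groups of mice (10 genes in 12 conditions), 23 held 1 mouse whose TPM stood far from the others by Dixon's criterion. For normal values, chance gives about 5% of groups, or 6. TPM of Hpx and Trf are skewed and the 10 genes share the same mice, so 23 against 6 does not measure an excess over chance. The causes were not tested.

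In the cachectic group at 8 weeks, mouse 3, the library with few genes, was high for Tfrc at 34.7 TPM (others 4.07 to 11.4) and low for Fth1 at 1386 TPM (others 3279 to 4389). Mice with high Alb stood out for both plasma carriers: Trf was at 276 TPM in cachectic mouse 1 at 2 weeks, 572 TPM in mouse 5 at 6 weeks and 250 TPM in mouse 2 at 8 weeks, and Hpx in the same mice was at 135, 617 and 264 TPM. Hpx also stood apart at 55.6 TPM in control mouse 1 at 4 weeks, 11.97 TPM in control mouse 3 at 6 weeks, 3.81 TPM in non-cachectic mouse 4 at 2 weeks and 11.8 TPM in non-cachectic mouse 3 at 8 weeks.

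Tfrc was at 41.7 TPM in control mouse 1 at 4 weeks (others 15.3 to 22.6), and Ftl1 at 735 TPM in control mouse 5 at 4 weeks. Slc11a2 was at 7.13 TPM in control mouse 3 and 7.82 TPM in non-cachectic mouse 3 at 6 weeks, and at 2.50 TPM in non-cachectic mouse 5 at 2 weeks, a library with few genes that also had the low Aco1 value of 10.3 TPM. Slc40a1 was at 3.39 TPM in cachectic mouse 2 at 4 weeks. Cp was at 6.85 TPM in non-cachectic mouse 2 at 2 weeks and 12.7 TPM in non-cachectic mouse 4 at 4 weeks. Aco1 was at 11.3 TPM in control mouse 4 at 6 weeks and 15.3 TPM in non-cachectic mouse 3 at 4 weeks.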

How the results depend on the processing

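Counts of the 10 members called moved with the processing, and the cause was not tested. Against control at 2 weeks (6 called), the count was 3 on median-ratio scaling, 2 on quantile normalization, 0 with array quality weights, by Dunn's test, in the compared groups alone and without the libraries with few genes, those rich in liver markers or both, and 0 to 8 on leaving out 1 mouse. At 4 weeks (0) it was 2 with array weights, 1 without the libraries with few genes and 1 without both sets. At 6 weeks (1) it was 6 with array weights, 0 by Dunn's test, 5 in the compared groups alone, 3 without few-gene libraries and 4 without both sets. At 8 weeks (1) it was 0 with no filter, by Dunn's test and in the compared groups alone, 3 on median-ratio scaling, 5 with array weights, 2 with Alb as covariate, 4 without few-gene libraries, 2 without liver-rich ones, 5 without both, and 0 to 4 on leaving out 1 mouse. Cachectic against non-cachectic mice gave 2 with array weights at 4 weeks (0). At 6 weeks (1) they gave 4, 0 by Dunn's test, 3 in the compared groups alone, 2 without few-gene libraries and 4 without both. At 8 weeks (1) they gave 3 on median-ratio scaling, 2 on quantile normalization, 5 with array weights, 0 by Dunn's test and in the compared groups alone, 2 with Alb, 4 without few-gene libraries, 2 without liver-rich ones, 4 without both, and 1 to 4 on leaving out 1 mouse. Non-cachectic against control mice at 2 weeks (3) gave 5 with array weights, 0 by Dunn's test, in the compared groups alone, with Alb, without liver-rich libraries and without both, and 0 to 5 on leaving out 1 mouse. Shares of all genes called moved too: against control, 48.4% at 6 weeks and 36.2% at 8 weeks with array weights, and 29.7% and 4.07% in the compared groups alone. Against non-cachectic mice these were 40.6% and 40.9%, and 24.3% and 2.68%. The change between 4 and 8 weeks (0) gave 1 with array weights, Ftl1.

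Mouse numbers did not pair the samples: of 60 same-numbered pairs within a week, 18 correlated above 0.1, with a median of -0.03. With the replicate block, 0 members were called against control at 8 weeks, and Cp stood at 0.70 (adjusted p = 0.0721).

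Signs against control turned for genes that had not passed. On median-ratio scaling these were Heph (-0.048 at 6 weeks, 0.089 at 8), Slc40a1 (-0.029 at 6) and Slc11a2 (-0.042 at 6), and on quantile normalization Heph (-0.053, 0.14), Slc40a1 (-0.059) and Slc11a2 (-0.071). With array weights, Hamp was at -0.065 and -0.79, Slc40a1 at -0.10 at 6 weeks, and Steap3 at 0.014, Tfr2 at -0.13, Aco1 at 0.0069, Hpx at -1.30 and Slc11a2 at 0.12 at 8 weeks. Without few-gene libraries, or both sets, Heph was at 0.00096 and Slc11a2 at 0.021 at 8 weeks, and without liver-rich ones, as without both sets, Tfr2 was at -0.12, Hamp at -0.69, Heph at -0.0014, Slc40a1 at -0.082 and Hpx at -0.11 at 6 weeks. Leaving out 1 mouse gave, at 6 weeks, -0.087 to 0.037 for Bmp2, -0.12 to 0.71 for Tfr2, -0.69 to 1.02 for Hamp, -0.032 to 0.10 for Heph, -0.082 to 0.33 for Slc40a1 and -0.11 to 2.20 for Hpx. At 8 weeks it gave -0.084 to 0.20 for Tfr2, -0.096 to 0.046 for Heph, -0.032 to 1.38 for Hpx, -0.52 to 0.24 for Alas2 and -0.29 to 0.021 for Slc11a2. At 6 weeks 763 of 922 genes called were higher, and 467 of 1012 on median-ratio scaling. At 2 weeks these were 192 of 3973 and 1217 of 2386, with the median of all genes moving from -0.42 to -0.06. Of the 53 other pathway genes, the 6 called at 6 weeks ranged from 0 (Dunn's test) to 27 (array weights), and the 12 at 8 weeks from 4 (compared groups alone) to 20 (without both sets).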

Other observations

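Per 1000 TPM of Alb, Hpx stood at 57.3 to 267 TPM in the 12 mice with at least 100 TPM of Alb, a measure examined after the values were seen. It was at 58.2 to 72.7 TPM in the 6 control mice, 91.5 TPM in the 1 non-cachectic mouse and 57.3 to 267 TPM in the 5 cachectic mice. The 3 cachectic values above 200 TPM were those at 6 and 8 weeks. No cachectic mouse at 4 weeks reached 100 TPM of Alb. There mice 1, 2, 4 and 5, at 2.06 to 22.0 TPM of Alb, stood at 231, 258, 220 and 206 TPM. Mouse 3, at 0.534 TPM of Alb, had 0 TPM of Hpx. Non-cachectic mice and 2-week cachectic mice in the same range of Alb stood at 27.8 to 141 TPM, and no control mouse was in it. Between 1 and 2 TPM of Alb, control mouse 1 at 2 weeks stood at 93.2 TPM and control mouse 4 at 6 weeks at 249 TPM. There, non-cachectic mouse 3 at 6 weeks stood at 150 TPM and cachectic mouse 6 at 8 weeks at 352 TPM. The 12 mice were selected by Alb and not by group, and no test was made.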
